A study of Homo sapiens with 6 samples.

Results

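The genes of the oxidative stress response and the targets of the transcription factor NRF2 were followed in SU-DHL-2 cells cultured with IL-17A. The set held 41 genes of 19740 named on the array, chosen by function: NRF2 and its partners, glutathione metabolism, peroxiredoxins and the thioredoxin system, glutathione peroxidases, superoxide dismutases and catalase, quinone, haem and iron handling, the pentose phosphate pathway, and glutathione transferases. The rule for membership used function and no measured value, although earlier results of these data were known when the set was drawn up. A probe was assigned to a gene through its RefSeq accession, and 40 of the 41 genes had at least 1 probe, PRDX2 being the exception. Of these, 37 were detected on at least 3 of the 6 arrays and were tested, while NFE2L2, SOD3 and ME1 were not.

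SU-DHL-2 is an established line of diffuse large B-cell lymphoma (DLBCL) cells. All 6 samples were grown in the same RPMI 1640 medium with serum, glutamine and antibiotics for 72 h, 3 with the cytokine IL-17A at 200 pg/ml and 3 without it as controls, and neither group carried another agent. The study asked which genes respond to IL-17A, in connection with its effect on the growth of lymphoma cells. RNA of each sample was labeled with Cy3 and hybridized to 1 Agilent Whole Human Genome array. The results hold for 1 cell line, 1 dose and 1 time point, and nothing in the labels says that the samples came from separately grown cultures, so p-values measure the spread between these samples only.

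NRF2, encoded by NFE2L2, is held in the cytoplasm by KEAP1, which hands it to a ubiquitin ligase for degradation. When oxidants or electrophiles modify cysteines of KEAP1, NRF2 escapes, pairs with a small MAF protein such as MAFG and binds antioxidant response elements, from which BACH1 otherwise keeps it away. Because this control acts mainly on the protein, the activity of the pathway is commonly read from the transcripts of its targets, such as NQO1, HMOX1, GCLC, GCLM, TXNRD1 and SRXN1, rather than from NFE2L2 itself.

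The antioxidant response element, through which NRF2 is known to act, has the core TGACNNNGC. Matches to these letters are shown as examples for 5 of the members whose promoter window holds them. The core was searched on both strands of windows from 250 bases before to 50 bases after each start site (RefSeq, GRCh38.p14). It was found in 9 of the 33 members in the table (27.3%), beside 16.1% of all 27305 genes in the table. The 9 were GCLM, GPX2, GSTP1, KEAP1, ME1, MGST1, PGD, TXNL1 and TXNRD1, while the windows of GLRX and GLRX2 did not hold these letters. The stretches below run 5′ to 3′ on the strand of the gene, with 16 bases on either side of the core, which is in capitals. GCNNNGTCA is the same core lying on the opposite strand, and TGACTCAGC in GSTP1 also contains TGACTCA, the site of AP-1.
GCLM, chr1:93909440-93909480, minus strand: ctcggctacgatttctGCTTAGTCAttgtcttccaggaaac
KEAP1, chr19:10502778-10502818, minus strand: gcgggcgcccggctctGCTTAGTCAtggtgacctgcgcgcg
TXNRD1, chr12:104286914-104286954, plus strand: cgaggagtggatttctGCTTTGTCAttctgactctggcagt
GPX2, chr14:64942843-64942883, minus strand: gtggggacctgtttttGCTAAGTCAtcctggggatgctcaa
GSTP1, chr11:67583730-67583770, plus strand: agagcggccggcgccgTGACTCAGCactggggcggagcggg
GCLM and KEAP1 held the same 9 letters, 34 and 31 bases before the start. KEAP1 and TXNRD1 held further matches, which are not shown. A match of letters is a description and does not show that a factor binds there.

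Values are log2 signals after quantile normalization, and a log2 fold change is the mean of the IL-17A arrays minus the mean of the controls. A gene was read at its probe with the highest mean signal, and 36 of the 37 tested members were well above background on all 6 arrays. Between 23570 and 24077 probes were detected per array, no spot was saturated, and the lowest signal that was well above background was 3.62 to 4.32. All 7 B cell markers were well above background on all 6 arrays, whereas the monocyte markers CSF1R and FCGR3A and the mesenchymal markers COL1A2, COL3A1, DCN and THY1 were not on any array. The mesenchymal marker COL1A1 was dim but well above background on all 6 arrays, and PDGFRB on 2 of 3 arrays in each group. The summed signal of these 2 was 16.3 to 21 with IL-17A and 14.5 to 23.2 without it. Of the T and NK cell markers 6 of 7 were well above background on all 6 arrays. CD3G was the brightest, at log2 signals of 6.59 to 6.79, and the others were dimmer. The summed signal of the 6 was 192 to 212 with IL-17A and 186 to 200 without it. The summed signal of 2 monocyte markers was 89.7 to 94.5 with IL-17A against 94.7 to 139, and that of 3 erythroid markers was 190 to 264 against 301 to 339. At an adjusted p under 0.05, 2 of the 25 markers tested were higher and 1 lower, beside 4.37% and 3.48% of all named genes. PRDM1 and XBP1 of the activated B cell and plasma cell list rose by 0.38 each on the log2 scale (limma adjusted p = 0.0327 and 0.0286). In the same list MZB1 was 0.13 higher, and IRF4 and SDC1 were lower, at -0.10 and -0.21. CD3E, which was dim, fell by 0.46 (limma adjusted p = 0.0401). Of its list 4 markers were higher and 2 lower, with CD2, also dim, at 0.51 (limma adjusted p = 0.0539). The part of these markers in the results was not tested. In bulk RNA, fewer cells that express a gene and less RNA per cell cannot be told apart. The 3 controls were scanned together with IL-17A replicate 1, and the other IL-17A arrays were scanned apart. Arrays of a shared scan were taken to share a slide, which is an inference, and on that reading slide and treatment overlapped in part.

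Few of the oxidative stress genes that could be measured were called after IL-17A. No tested member passed a fold change of 1.5 with p under 0.05, a threshold that 1.92% of all 14747 named genes tested passed (0.814% higher and 1.11% lower). At an adjusted p under 0.05, 2 of the 37 members (5.41%) were called, beside 7.85% of all named genes. Both were the glutaredoxins GLRX and GLRX2, which fell, and of all named genes 4.37% were called higher and 3.48% lower. Unadjusted limma p-values under 0.05 were seen for 9 members (24.3%), beside 31.8% of all named genes. Of the 9, 2 members were higher (5.41%, beside 16.9%) and 7 lower (18.9%, beside 14.8%). The groups of arrays did not overlap for 17 members (45.9%, beside 40.6%), of which 5 were higher (13.5%, beside 21.3%) and 12 lower (32.4%, beside 19.3%). With these settings the shares called in either direction were near or below the background, and the lower members made up more of them than the lower genes did over the whole array, which was not tested.

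The changes were small. The median absolute log2 fold change was 0.08 over the members and 0.11 over all named genes, and 24 members changed by less than 0.1 on the log2 scale. For 33 members the 95% confidence interval of the limma fit lay inside a 1.5-fold change in either direction, and for 28 it lay inside 1.25-fold. The 4 whose interval reached 1.5-fold were GPX2, GPX3, GPX8 and NQO1, whose signals were all dim.

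**Figure D1:**
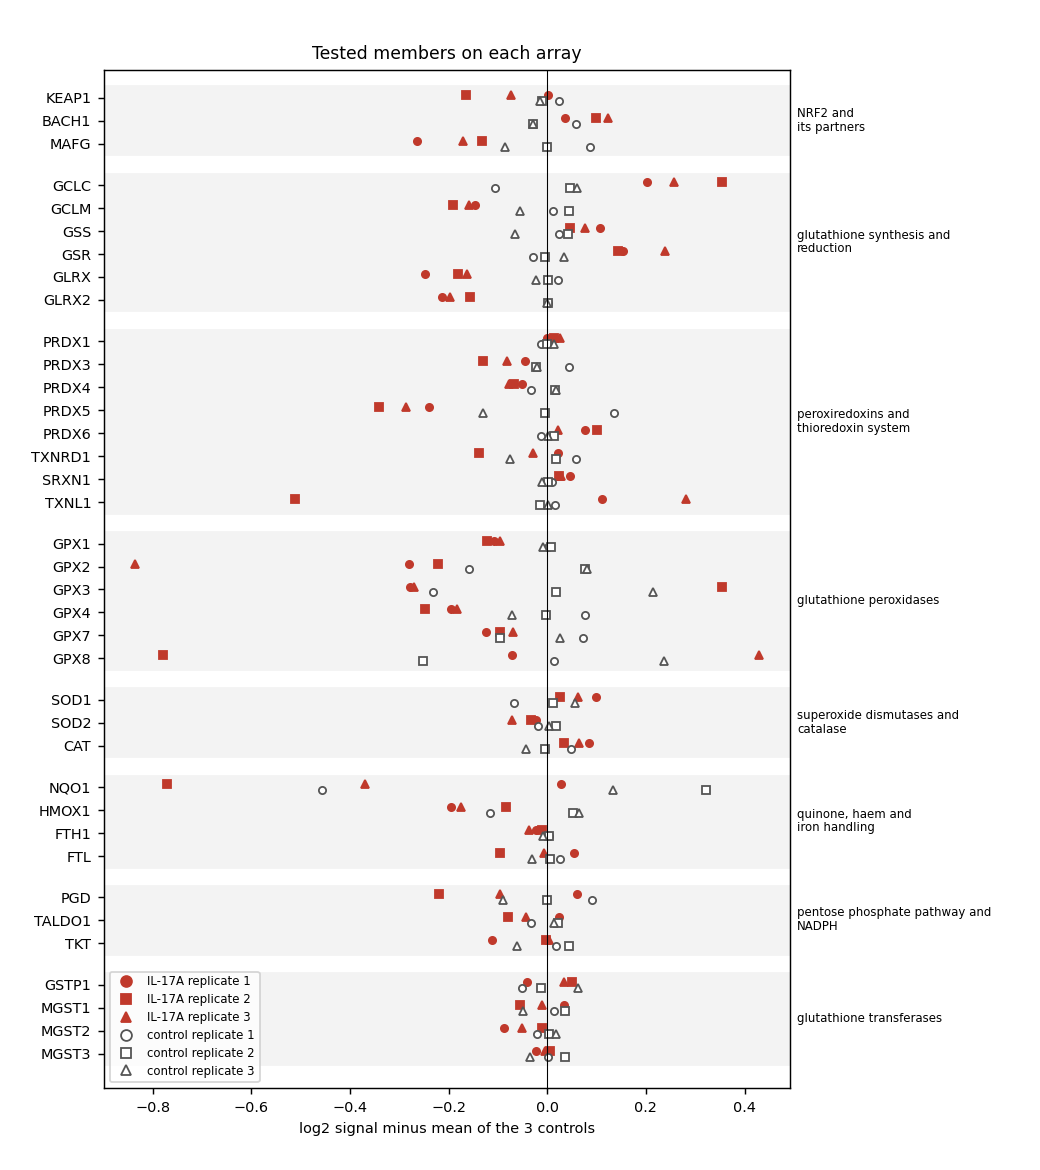
Log2 signal of each of the 37 tested members on each array, minus the mean of the 3 control arrays, with the genes grouped by role on the vertical axis and points colored by treatment. Most points lie close to the control mean, and the 3 IL-17A points of GLRX and GLRX2 sit apart from the controls on the lower side.

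In direction, 27 of the 37 members were lower with IL-17A and 10 were higher, while over all named genes 7238 were lower and 7509 higher. The median log2 fold change of the members was -0.05, beside 0.003 for all named genes. Under the 19 alternatives to the processing 20 to 29 members were lower, and 22 members kept their direction under every one of them. Comparing within the slide that held both groups, 1 IL-17A array against 3 controls, left 20 lower and 16 higher, with a median of -0.02.

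NFE2L2 itself was barely measured. Its probe read 1.73, 1.98 and 1.88 on the IL-17A arrays and 2.09, 2.31 and 1.84 on the controls, and it was well above background on 1 control array only. It was not tested, and a change in this transcript was not detectable here. KEAP1, the sensor that restrains NRF2, read 9.84, 9.68 and 9.77 with IL-17A and 9.87, 9.83 and 9.83 without it, a log2 fold change of -0.08 (SE 0.05, limma adjusted p = 0.353). The groups overlapped, and within the shared slide the difference was 0.002.

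BACH1, the repressor that competes with NRF2 for its sites, read 11.02, 11.08 and 11.11 with IL-17A against 11.04, 10.96 and 10.96, a log2 fold change of 0.09 (limma adjusted p = 0.257). Its other probe was close to background, with log2 signals of only 2.62 to 3.40. That probe gave 0.36 (limma adjusted p = 0.139), with all 3 IL-17A arrays above all 3 controls. MAFG, a small MAF partner of NRF2, read 8.73, 8.86 and 8.83 with IL-17A against 9.08, 8.997 and 8.91. All 3 IL-17A arrays lay below the controls, and the log2 fold change of -0.19 (SE 0.06) did not pass after adjustment (limma adjusted p = 0.110). A dimmer MAFG probe gave 0.08, in the other direction (limma adjusted p = 0.570), so the probes did not settle the direction of MAFG.

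Both called members belonged to glutathione synthesis and reduction, where 2 of 6 members were called and 5 passed limma at p under 0.05 without adjustment, beside 7.85% and 31.8% of all named genes. With 6 genes these counts are a description and were not tested. GLRX, cytosolic glutaredoxin, which uses glutathione to release protein cysteines from mixed disulfides, read 11.68, 11.74 and 11.76 with IL-17A. The controls read 11.95, 11.93 and 11.90, so the groups did not overlap. GLRX fell by 0.20 on the log2 scale (SE 0.04, 95% interval -0.30 to -0.10, limma adjusted p = 0.0475), a change of -12.7% in signal.

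GLRX2, the glutaredoxin found in mitochondria and elsewhere in the cell, gave a difference of like size. Its arrays read 10.07, 10.12 and 10.08 with IL-17A, and 10.28 on each of the 3 controls. GLRX2 fell by 0.19 on the log2 scale (SE 0.04, 95% interval -0.28 to -0.10, limma adjusted p = 0.0418), a change of -12.3%. Both genes were lower under all 19 alternatives, with log2 fold changes of -0.25 to -0.17 for GLRX and -0.21 to -0.15 for GLRX2. Their adjusted p lay close under the threshold, stayed under it in 8 of the 19 alternatives for each gene, and rose to 0.111 and 0.122 with slide as a block. Leaving out any 1 of the 6 arrays also ended both calls, with adjusted p from limma of 0.0682 to 0.170 for GLRX and 0.066 to 0.163 for GLRX2. An exact permutation test of 3 arrays against 3 cannot give a two-sided p below 0.1.

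Glutamate-cysteine ligase, the enzyme that limits the rate of glutathione synthesis, is made of a catalytic subunit, GCLC, and a modifier subunit, GCLM. GCLC read 9.27, 9.42 and 9.32 with IL-17A against 8.96, 9.11 and 9.12 without it. Its log2 fold change was 0.27 (SE 0.07, limma adjusted p = 0.0627), or 20.7% more signal. GCLM, which holds the core shown above, read 13.82, 13.78 and 13.81 with IL-17A against 13.98, 14.02 and 13.92 without it. Its log2 fold change was -0.17 (SE 0.04, limma adjusted p = 0.0677), or -10.8%. For each subunit the groups did not overlap, GCLC above and GCLM below the controls, and neither passed after adjustment. Each kept its direction under all 19 alternatives and was called under 2 of them.

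GSR is glutathione reductase, which returns oxidized glutathione to its reduced form with NADPH. Its values on each array, like those of GPX4, GPX1, GPX2, PRDX5 and TXNL1 below, were picked for display after they had been seen. It read 7.95, 7.94 and 8.04 with IL-17A against 7.77, 7.79 and 7.83, with no overlap. The log2 fold change was 0.18 (SE 0.04, limma adjusted p = 0.0639), and a second probe gave 0.10 (limma adjusted p = 0.471). GSR was called under 1 of the 19 alternatives. GSS, glutathione synthetase, which makes the last step of the synthesis, had a log2 fold change of 0.08 (limma adjusted p = 0.298). Across these 6 genes, GCLC, GSS and GSR were higher in mean signal and GCLM, GLRX and GLRX2 lower.

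**Figure D2:**
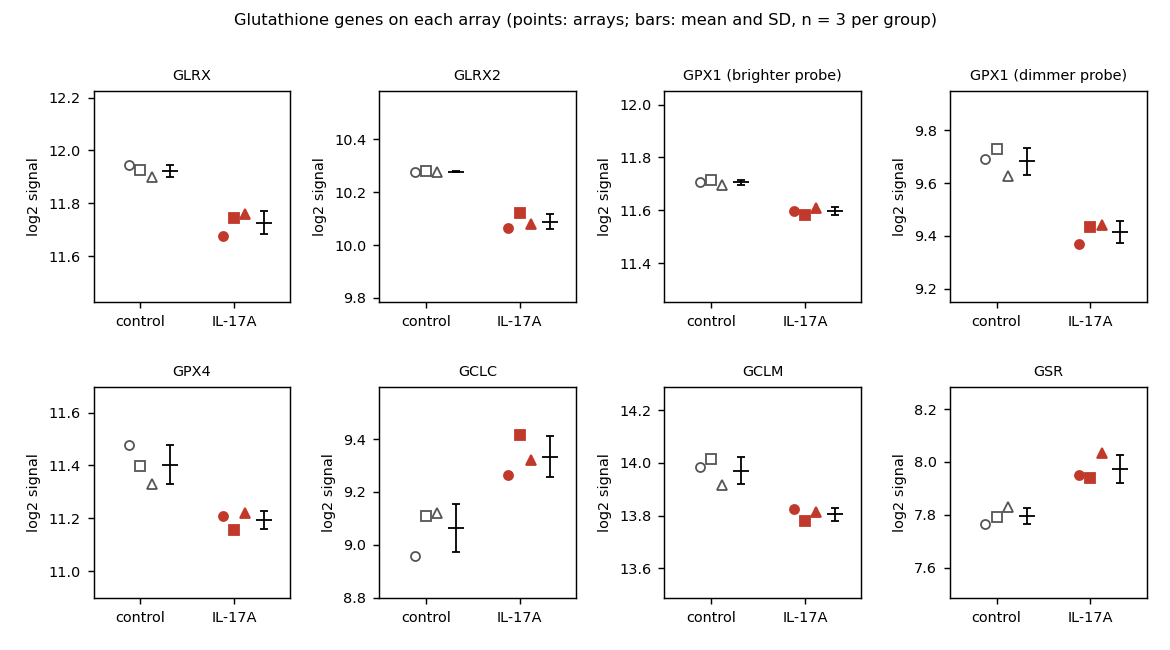
Log2 signal on each array for GLRX, GLRX2, both GPX1 probes, GPX4, GCLC, GCLM and GSR, with IL-17A and control arrays side by side and bars for the mean and SD of 3 arrays. GLRX, GLRX2, GPX1, GPX4 and GCLM lie lower with IL-17A and GCLC and GSR higher, with no overlap between the groups in any panel.

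The glutathione peroxidases, several of which spend glutathione to reduce hydrogen peroxide or lipid peroxides, were lower in mean signal for all 6 members, with a median log2 fold change of -0.12. None of the 6 was called at its representative probe in the main fit. The direction was not settled for GPX3, which was well above background on 1 of 3 IL-17A arrays and turned positive without IL-17A replicate 1, without IL-17A replicate 3 or without control replicate 3 (0.04 in each case), nor for GPX8, which was 0.004 after normexp background correction and 0.18 without IL-17A replicate 2.

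GPX4, the selenoenzyme that reduces lipid peroxides in membranes and guards cells from ferroptosis, read 11.21, 11.15 and 11.22 with IL-17A. The controls read 11.48, 11.40 and 11.33, all above the IL-17A arrays, and the log2 fold change was -0.21 (SE 0.05, limma adjusted p = 0.0630). GPX4 was called under 2 of the 19 alternatives. GPX1, the abundant cytosolic selenoenzyme, had a brighter probe at 11.60, 11.58 and 11.61 with IL-17A against 11.71, 11.71 and 11.70. The groups did not overlap, and the log2 fold change was -0.11 (SE 0.03, limma adjusted p = 0.0944).

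The dimmer GPX1 probe read 9.37, 9.43 and 9.44 with IL-17A against 9.69, 9.73 and 9.63, and it passed the test. It gave a log2 fold change of -0.27 (SE 0.05, limma adjusted p = 0.0362). Both probes of GPX1 lay lower with IL-17A on all 3 arrays, and they differed in size. In the main fit the call on GPX1 depended on which probe stood for the gene. The brighter probe was called with an intensity trend (limma adjusted p = 0.0391) and by the methods' t-test (adjusted p = 0.0325). The mean over the probes of GPX1 was called as well (limma adjusted p = 0.0308). GPX2, an enzyme best known from the gut lining, was dim at 4.00, 4.06 and 3.44 with IL-17A against 4.12, 4.36 and 4.36 (log2 fold change -0.45, 95% interval -0.89 to 0.002, limma adjusted p = 0.161). GPX7, a peroxidase of the endoplasmic reticulum, had a log2 fold change of -0.10 (limma adjusted p = 0.280).

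Peroxiredoxins remove peroxides with a reactive cysteine, which in most of them thioredoxin then reduces. None of the 8 members tested in the group of peroxiredoxins and the thioredoxin system was called in the main fit. PRDX5, found in mitochondria, peroxisomes and the cytosol, was the member of the group furthest from 0. It read 11.54, 11.44 and 11.50 with IL-17A against 11.92, 11.78 and 11.65 without it. Its log2 fold change was -0.29 (SE 0.08, limma adjusted p = 0.0722), or -18.1%, and it was called under 2 of the 19 alternatives. The groups did not overlap, and the 3 controls spanned more than the IL-17A arrays did.

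PRDX1, PRDX3, PRDX4 and PRDX6 had log2 fold changes of 0.01, -0.09, -0.07 and 0.07, and the second probe of PRDX1 gave -0.02. PRDX1 has near-identical copies in the genome, so its signal may not be its own alone. TXNRD1, the selenoenzyme that keeps thioredoxin reduced and a classic NRF2 target, read 7.81, 7.66 and 7.76 with IL-17A against 7.85, 7.81 and 7.72 (log2 fold change -0.05, SE 0.06, limma adjusted p = 0.619). The groups overlapped, and within the shared slide the difference was 0.02.

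SRXN1, sulfiredoxin, the NRF2 target that repairs overoxidized peroxiredoxins, read 9.21, 9.19 and 9.20 with IL-17A against 9.18, 9.17 and 9.16. All 3 IL-17A arrays lay above the controls by a small margin, a log2 fold change of 0.03 (95% interval -0.05 to 0.11, limma adjusted p = 0.537). TXNL1, a thioredoxin-like protein bound to the proteasome, had controls at 11.97, 11.94 and 11.96 and IL-17A arrays at 12.07, 11.45 and 12.24. IL-17A replicate 2 stood apart below the other arrays, and the log2 fold change moved from -0.04 to 0.20 without it (limma adjusted p = 0.148).

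**Figure D3:**
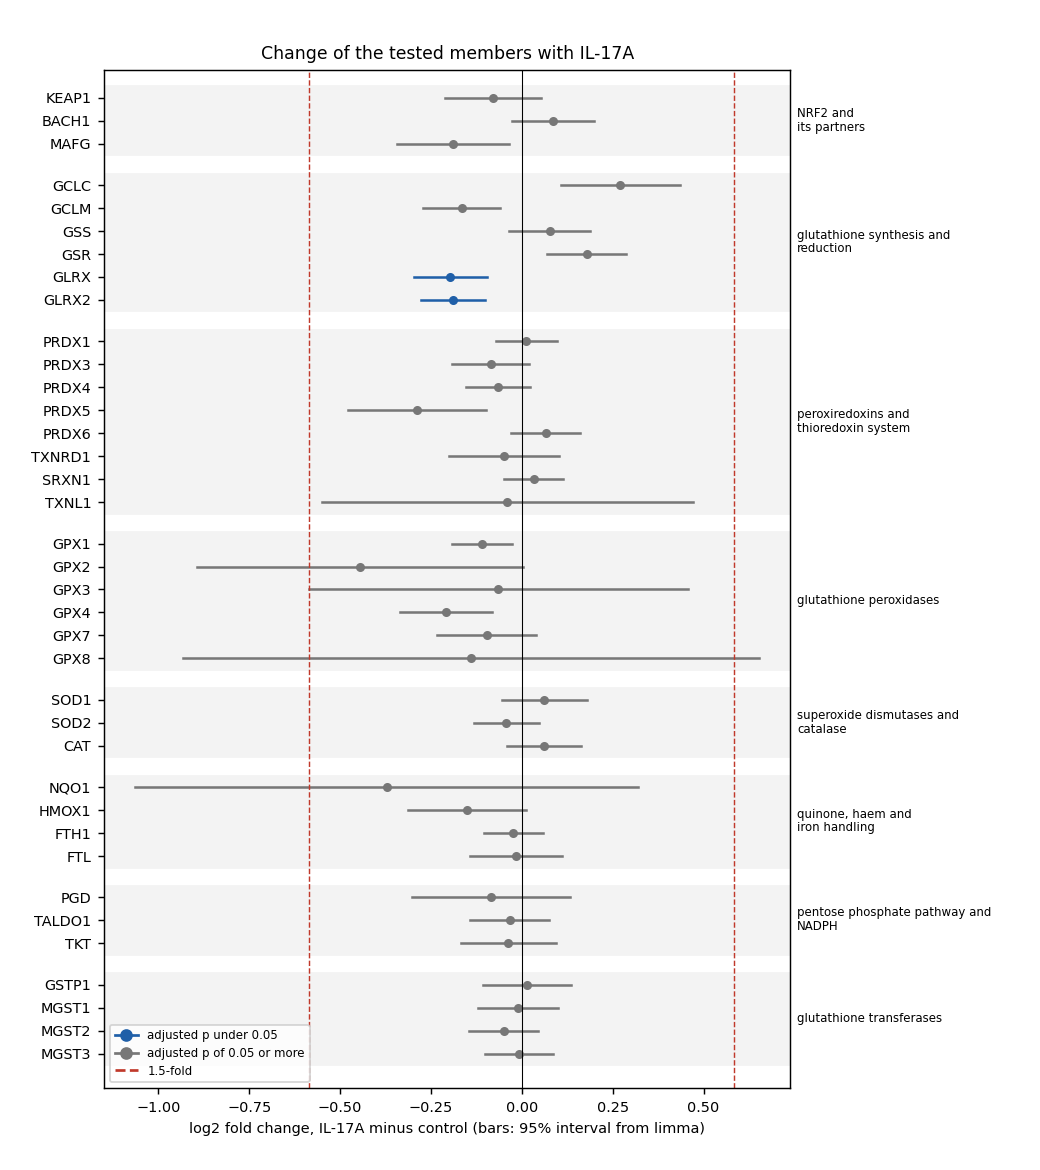
Log2 fold change (IL-17A minus control) of each tested member with its 95% confidence interval from the limma fit, grouped by role, with dashed lines at a 1.5-fold change. The intervals of GLRX and GLRX2, in blue, are the only ones of genes with adjusted p under 0.05, and the wide intervals that cross a dashed line belong to GPX2, GPX3, GPX8 and NQO1.

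NQO1 and HMOX1, widely used as reporters of NRF2 activity, were not called. NQO1, the quinone reductase that turns quinones into hydroquinones, was dim, at 3.79, 2.99 and 3.39 with IL-17A and 3.30, 4.08 and 3.89 in the controls. Its groups overlapped, the log2 fold change was -0.37 (SE 0.28, 95% interval -1.06 to 0.32, limma adjusted p = 0.404), and within the shared slide it was 0.03. A rise or fall of NQO1 inside this interval was not detectable on these arrays. HMOX1, the inducible heme oxygenase, which breaks down heme to iron, carbon monoxide and biliverdin, read 6.42, 6.53 and 6.44 with IL-17A against 6.499, 6.67 and 6.68. The log2 fold change was -0.15 (SE 0.07, 95% interval -0.31 to 0.01, limma adjusted p = 0.181), and the groups overlapped.

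FTH1 and FTL, the heavy and light chains of ferritin, which stores iron and is raised by NRF2 in many cells, had log2 fold changes of -0.02 each. Their other probes gave -0.12 and -0.01 for FTH1 and -0.09 for FTL, and none was called. Both genes have many near-identical processed copies, so their probes may read more than the parent gene.

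Among the enzymes that detoxify superoxide and hydrogen peroxide, SOD1 and CAT had log2 fold changes of 0.06 each and SOD2 of -0.04, with adjusted p of 0.413, 0.356 and 0.453 by limma. SOD2, the mitochondrial enzyme, is a familiar target of NF-kB, and its 95% interval ran from -0.13 to 0.05. SOD3, the secreted form, was not well above background on any array. Of the pentose phosphate enzymes that supply NADPH and ribose, PGD, TALDO1 and TKT had log2 fold changes of -0.09, -0.03 and -0.04, with adjusted p of 0.538, 0.640 and 0.661 by limma. ME1, the malic enzyme that also makes NADPH, was not well above background on any array.

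The glutathione transferases, which couple glutathione to electrophiles, lay close to 0. GSTP1, MGST1, MGST2 and MGST3 had log2 fold changes of 0.01, -0.01, -0.05 and -0.01, and none of the 4 intervals left the range from -0.15 to 0.135. GSTP1 and MGST1 each hold the antioxidant response core in their promoter window.

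The members with and without the core could be read side by side. Of the 9 with the core, ME1 was not detected, and the other 8 had log2 fold changes from -0.45 for GPX2 to 0.01 for GSTP1. None of the 8 was called, beside 7.85% of all named genes, and with so few genes this count shows no contrast. Both called members were among those without it in the window, as were the NRF2 targets GCLC, NQO1 and SRXN1. Another 8 members, HMOX1 among them, had no window to search. Lack of the core in these windows therefore does not mark genes that NRF2 leaves alone, and a part of the core in the changes was not tested.

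**Figure D4:**
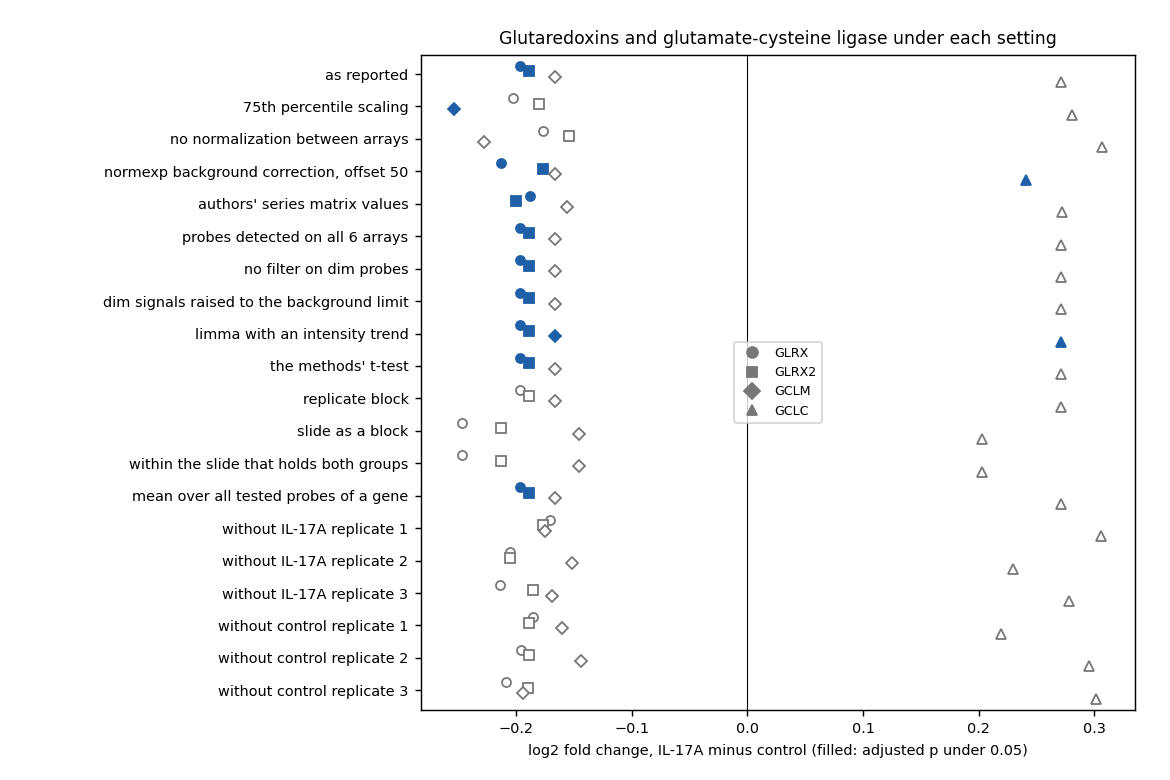
Log2 fold change of GLRX, GLRX2, GCLM and GCLC under each processing setting, with filled points where the adjusted p was under 0.05. GLRX, GLRX2 and GCLM stay below 0 and GCLC above 0 throughout, while the calls come and go.

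Further genes of the same pathways, from 8 lists of 106 genes, were read with the same fit. Of the 87 tested, 7 were called (8.05%), 6 higher and 1 lower, beside 7.85% of all named genes (4.37% higher and 3.48% lower), so the share was at the background. The counts of called genes in single lists below are small and are read against the same shares. The median log2 fold change over the 87 genes was -0.008. In glutathione supply and use, 2 of 12 tested genes rose. CTH, cystathionine gamma-lyase, which makes cysteine by transsulfuration, read 8.64, 8.64 and 8.65 with IL-17A against 8.31, 8.36 and 8.35. It rose by 0.30 on the log2 scale (SE 0.04, limma adjusted p = 0.0313), or 23.4%.

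CHAC1, which cleaves glutathione and is a target of ATF4, read 8.32, 8.32 and 8.35 with IL-17A against 8.02, 8.05 and 7.99. It also rose by 0.30 (SE 0.04, limma adjusted p = 0.0313), and for both genes the groups stood well apart. SLC7A11, the cystine transporter that is a target of both NRF2 and ATF4, had a log2 fold change of 0.11 (limma adjusted p = 0.366).

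Of the NRF2 regulators, 1 of 13 tested genes rose. MAFF, a small MAF protein, read 5.65, 5.56 and 5.60 with IL-17A against 5.26, 5.37 and 5.31, a log2 fold change of 0.29 (SE 0.05, limma adjusted p = 0.0360). All 3 of its IL-17A arrays lay above the controls, and it was 0.34 within the shared slide. In the iron and haem list, 1 of 11 fell: HMOX2, the constitutive heme oxygenase, read 9.02, 8.85 and 9.03 with IL-17A against 9.27, 9.32 and 9.27, with no overlap. HMOX2 fell by 0.32 on the log2 scale (SE 0.06, limma adjusted p = 0.0432).

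Of the NADPH oxidases and their subunits, which produce superoxide or hydrogen peroxide, 1 of 7 tested was called. DUOX2, a dual oxidase, read 6.54, 6.48 and 6.42 with IL-17A against 5.95, 6.10 and 5.96, and rose by 0.47 on the log2 scale (SE 0.06, limma adjusted p = 0.0315), or 38.9%. NOX1 was well above background on 1 of 3 IL-17A arrays and on all 3 controls, and read 2.55, 1.30 and 1.81 against 2.71, 3.08 and 2.69. Its log2 fold change of -0.94 passed 1.5-fold with an unadjusted p of 0.03 and failed after adjustment (limma adjusted p = 0.121), and within the shared slide it was -0.27. It was -0.59 with dim signals raised to the background limit and -0.07 with normexp background correction, so its size is not settled.

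In the thioredoxin list, 1 of 12 rose: TXNIP, the inhibitor of thioredoxin that also answers to glucose, by 0.67 on the log2 scale (SE 0.06, limma adjusted p = 0.0251). It was the only gene of the 8 lists that passed both 1.5-fold and the adjusted threshold. TXN, thioredoxin itself, had a log2 fold change of -0.06 (limma adjusted p = 0.409). Of the glutathione transferases, GSTA4, which clears lipid aldehydes, rose by 0.17 on the log2 scale (SE 0.04, limma adjusted p = 0.0478). In the lists of pentose phosphate and NADPH enzymes and of further antioxidant response element genes none of 12 and of 8 tested genes was called. Of the 19 alternatives, the call held in 6 for GSTA4, in 7 each for MAFF and HMOX2, and in 10 each for TXNIP, CTH, CHAC1 and DUOX2. With normexp background correction GSTA4 was 0.05, and MAFF was not called on the authors' values (limma adjusted p = 0.0686). None of the 7 called genes kept its call with slide as a block, where the direction of each stayed the same. With 1 array left out, none of the 87 genes was called except without control replicate 3, where 5 were. Without that control 4.12% of all named genes were called, and with any other array left out 0.00678% to 0.292%.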

How the data were processed

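RNA of 3 samples of SU-DHL-2 cells given IL-17A for 72 h and of 3 control samples was profiled on 1-colour arrays. The files deposited by the authors hold, per spot, a background-subtracted intensity from Agilent Feature Extraction 11.0.1.1 with no normalization between arrays, and a series table holds the authors' quantile normalized log2 values, with the same median of 4.95 on every array. Control and non-uniform spots (4 to 25 per array) were left out, intensities below 1 were set to 1, and 43118 spots were averaged to 34127 probes on the log2 scale and quantile normalized. The 23945 probes that were positive, significant and well above background on at least 3 of 6 arrays were tested with limma 3.58.1 (R 4.3.3), two-sided, IL-17A against control without covariates, with Benjamini-Hochberg adjustment over all of them. Probes were named through RefSeq accessions (symbols from GRCh38.p14). Probe positions were not used, because the annotation of the array follows an earlier assembly. Promoter windows and their coordinates come from RefSeq on GRCh38.p14. The number of arrays limits the precision. The limma procedure was tested on simulated data.

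The members, the pathway lists and the tests were chosen with earlier results of these data known. Values on each array are given for NFE2L2, KEAP1, BACH1, MAFG, NQO1, HMOX1, GCLC, GCLM, TXNRD1 and SRXN1 and for members that passed a threshold. From the 8 pathway lists, genes past 1.5-fold with p under 0.05, or else up to 2 with the lowest adjusted p under 0.05, were named. DUOX2, beside NOX1 of the same list, and SLC7A11 and TXN, which passed no threshold, were named after their values were seen. Same-numbered samples did not deviate together (r = -0.09, -0.002 and -0.05), so no pairing was used. Slides were inferred from scans that arrays shared. Alternatives were the normalization, the background correction, the series table, the filter and floor on dim signals, an intensity trend, the methods' t-test, replicate number or slide as a block, the mean over a gene's probes, and leaving out single arrays. Reading any tested probe of a gene, and GPX1 at its dimmer probe, were alternatives chosen after seeing the data.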

Additional observations from a re-analysis of the deposited data

How the results depend on the processing

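The count of 2 members with an adjusted p under 0.05 did not hold under every alternative. It was 1 with 75th percentile scaling (2.7%, beside 5.89% of all named genes), where GCLM alone was called. With no normalization between arrays it was 0, beside 0.19% of all named genes. The count was 5 with normexp background correction (13.5%, beside 9.9% of all named genes) and 8 with an intensity trend in limma (21.6%, beside 17.7%), settings under which the members' share lay above that of all genes. The methods' t-test called 3 members, GLRX, GLRX2 and GPX1, after Benjamini-Hochberg adjustment (8.11%, beside 5.93%) and 0 at the study's fold and p thresholds. Reading any tested probe of a gene also gave 3, with GPX1 added, and the share over all named genes was not computed for that reading. With a replicate block, with slide as a block and within the slide that held both groups it was 0, and it was 0 each time 1 of the 6 arrays was left out. These settings also changed the count over all named genes, from 1157 to 28 without normalization, 3 with the replicate block, 31 with slide as a block, 17 within the slide, and 1 to 608 with an array left out. Leaving out an array leaves fewer samples, and the cause of the other changes was not tested. The replicate block rests on numbers that did not pair the samples. No member passed 1.5-fold with p under 0.05 under any alternative, and the median log2 fold change of the members stayed between -0.06 and -0.02. With slide as a block and within the slide, the direction turned for KEAP1 (0.002 in both), TXNRD1 (0.021 in both) and NQO1 (0.027 in both). The within-slide value rests on IL-17A replicate 1 alone, which is assumed to vary like the controls. Of 209 values of the named members under these alternatives, 177 kept their direction and side of the threshold, and 22, all of GLRX or GLRX2, kept their direction and lost the call. The other 4, of GCLC and GCLM, gained a call, and 6 turned as given above. Changes of dim probes such as NQO1, GPX3 and GPX8 are limited by signals close to background.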
